A study of Mus musculus with 18 samples.

Results

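The genes described here are 7 transcription factors that drive epithelial-mesenchymal transition (EMT), the change in which epithelial cells give up their junctions and take on the shape and motility of mesenchymal cells. They are Snai1, Snai2, Zeb1, Zeb2, Twist1, Prrx1 and Hmga2. Each was found by its symbol among the 24527 entries of a raw read count table, and all 7 passed the low-count filter that left 13827 genes for testing. The RNA came from PD454, PD7591 and PD883, cell lines grown from ductal adenocarcinoma of the mouse pancreas on a mixed strain background per the labels. Cells of the 3 lines received DMSO, the vehicle, or 2.5 µM of the calcium ionophore ionomycin, or TGFb at 10 ng/ml, a well known inducer of EMT, and were taken after 48 h. Each of the 9 combinations was sequenced as 2 libraries, so each treatment had 6 of the 18. Every group grew in the same hormone-supplemented medium, which contained insulin, dexamethasone, a glucocorticoid, and cholera toxin, an agent that raises cyclic AMP. The labels give no sign that the paired libraries came from separate cultures, so the p-values measure a spread between libraries that may be technical.

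As background, SNAIL proteins (Snai1 and Snai2) and ZEB proteins (Zeb1 and Zeb2) are zinc finger repressors that bind E-box sequences in the promoters of epithelial genes, of which the E-cadherin gene Cdh1 is the best known. TWIST1 is a basic helix-loop-helix factor and PRRX1 a homeobox factor. HMGA2 is an architectural chromatin protein that bends DNA and works with SMAD proteins, the intracellular messengers of TGFb. Its RNA is repressed by let-7 microRNAs, and ZEB RNAs are repressed by the miR-200 family. Calcium acts on transcription in part through calcineurin, a phosphatase that lets NFAT factors enter the nucleus. In pancreatic carcinoma these factors have been studied as switches between epithelial and mesenchymal states.

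The upstream sequences of 3 members are shown, chosen by how they responded: Snai1 was called for TGFb, and Zeb2 and Twist1 for each agent. They are the 250 bases before a RefSeq transcription start on GRCm38.p6, read 5′ to 3′ on the strand of the gene, with matches to the searched motifs in capitals.
Snai1, chr2:167537945-167538194, plus strand: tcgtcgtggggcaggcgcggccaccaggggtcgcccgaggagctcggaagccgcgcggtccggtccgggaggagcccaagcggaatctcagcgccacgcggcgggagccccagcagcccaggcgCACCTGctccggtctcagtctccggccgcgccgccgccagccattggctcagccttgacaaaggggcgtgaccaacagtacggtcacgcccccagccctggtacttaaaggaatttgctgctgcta
Zeb2, the outermost of its starts, chr2:45117443-45117692, minus strand: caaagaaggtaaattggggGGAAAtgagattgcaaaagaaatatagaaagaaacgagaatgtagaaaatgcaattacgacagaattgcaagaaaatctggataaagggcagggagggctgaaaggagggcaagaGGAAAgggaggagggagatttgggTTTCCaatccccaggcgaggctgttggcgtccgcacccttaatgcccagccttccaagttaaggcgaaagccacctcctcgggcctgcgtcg
Twist1, chr12:33957421-33957670, plus strand: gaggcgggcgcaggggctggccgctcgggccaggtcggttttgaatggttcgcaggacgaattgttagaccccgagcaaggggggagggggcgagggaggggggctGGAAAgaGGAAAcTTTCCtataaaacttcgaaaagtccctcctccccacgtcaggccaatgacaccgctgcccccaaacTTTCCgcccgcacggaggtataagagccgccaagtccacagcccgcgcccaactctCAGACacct
The motifs were the E-box CAGGTG, which SNAIL and ZEB proteins bind, the E-box CAGCTG, the SMAD element CAGAC, the NFAT core GGAAA and the AP-1 element TGANTCA, each searched on both strands, and no matches overlapped in these windows. The Snai1 window held the CAGGTG E-box once, on the opposite strand and 126 bases before the start. The Zeb2 window held the NFAT core 3 times. Other Zeb2 starts differed: the innermost window, chr2:45110278-45110527, held 2 AP-1 elements and no NFAT core. The Zeb2 windows between these overlapped each other and held the same 2 NFAT cores. In the Twist1 window the NFAT core occurred 4 times, and the SMAD element lay 9 bases before the start. Of 32851 RefSeq promoter windows of this length, 17.2% held CAGGTG, 13% CAGCTG, 42.2% CAGAC, 55.6% GGAAA and 6.75% TGANTCA, so the shorter motifs are common. These matches describe the letters of the windows only. RefSeq entries were matched for 5 members, and the windows of Prrx1 and Hmga2 are not printed. Prrx1, called for neither agent, had the SMAD element 19 bases before the start and 1 NFAT core. Hmga2, called for both agents, had 1 NFAT core and no SMAD element. Snai2 was not matched, and Zeb1 was left out of this search.

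Library totals ran from 17591005 to 37894692 counts. The log2 values of duplicate libraries correlated across genes with r from 0.981 to 0.993. Counts from short transcripts were enriched in 4 libraries, numbered 14 and 18 (PD454 with DMSO and with TGFb) and 8 and 12 (PD883 with DMSO and with TGFb). The ductal label was checked against 9 markers, whose summed level was 3977 to 9723 CPM, the counts scaled to a common library size with TMM factors. The keratin genes Krt8 and Krt18 were high, with at least 1376 and 1466 CPM, whereas the epithelial adhesion gene Epcam reached at most 4.30 CPM. With TGFb, 5 of the 9 ductal markers fell and 2 rose, beside 26.5% and 24.3% of all tested genes. Krt19 fell from a mean of 984 to 18.1 CPM (log2 fold change -5.86) and Muc1 from 30.0 to 1.54 (-3.94). The risers were Sox9 (2.40) and Krt18 (0.29). The 10 fibroblast markers summed to between 2.77 and 6.50 CPM in DMSO libraries, between 2.30 and 5.70 in ionomycin libraries and between 7.92 and 102 in TGFb libraries, where Col1a1 and Pdgfrb rose. The 6 endothelial markers summed to at most 3.43 CPM in any library, and all 3 that could be tested rose with ionomycin. This count was 1 with no line term and without library 14 (DMSO PD454) or the 4 libraries named above, and 0 without PD454 or with duplicates summed. The 7 immune markers summed to between 3.66 and 5.93 CPM in DMSO libraries, between 9.01 and 29.4 in ionomycin libraries and between 3.14 and 4.75 in TGFb libraries, and Cd68 was the marker that rose with ionomycin. Of the defining markers, 1 endothelial and 1 immune gene had 0 counts in all DMSO libraries. The part of such cells in the results below was not tested. In bulk RNA, more cells of a type and more RNA per cell cannot be told apart.

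With TGFb, 5 of the 7 factors rose and none fell: Snai1, Zeb1, Zeb2, Twist1 and Hmga2. Snai2 and Prrx1 did not pass the test. With ionomycin, 4 of the 7 rose and none fell: Snai2, Zeb2, Twist1 and Hmga2. The test was edgeR's quasi-likelihood test with terms for treatment and line, and a gene was called when its Benjamini-Hochberg adjusted p over all tested genes was under 0.05. Under the same rule, 50.7% of all tested genes were called for TGFb (24.3% higher and 26.5% lower) and 33.3% for ionomycin (17.2% higher and 16.1% lower). The median log2 fold change of the 7 factors was 0.81 for TGFb and 0.49 for ionomycin, beside -0.00 and -0.03 over all tested genes. The treatments were compared with the same DMSO libraries, so the values of the treatments are given side by side. Where duplicate libraries were summed, or the line was left out of the model, 2 of the 7 factors were called higher with ionomycin.

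Set directly against TGFb, ionomycin gave lower levels of 5 factors (Snai1, Zeb1, Zeb2, Twist1 and Hmga2) and a higher level of 1, Snai2. The background of this comparison was 62.9% of tested genes called, 31.0% higher and 31.9% lower. All ionomycin libraries were below all TGFb libraries for 4 factors (Snai1, Zeb1, Zeb2 and Hmga2), beside 12.3% of tested genes, and above them for Snai2, beside 14.7%.

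**Figure D1:**
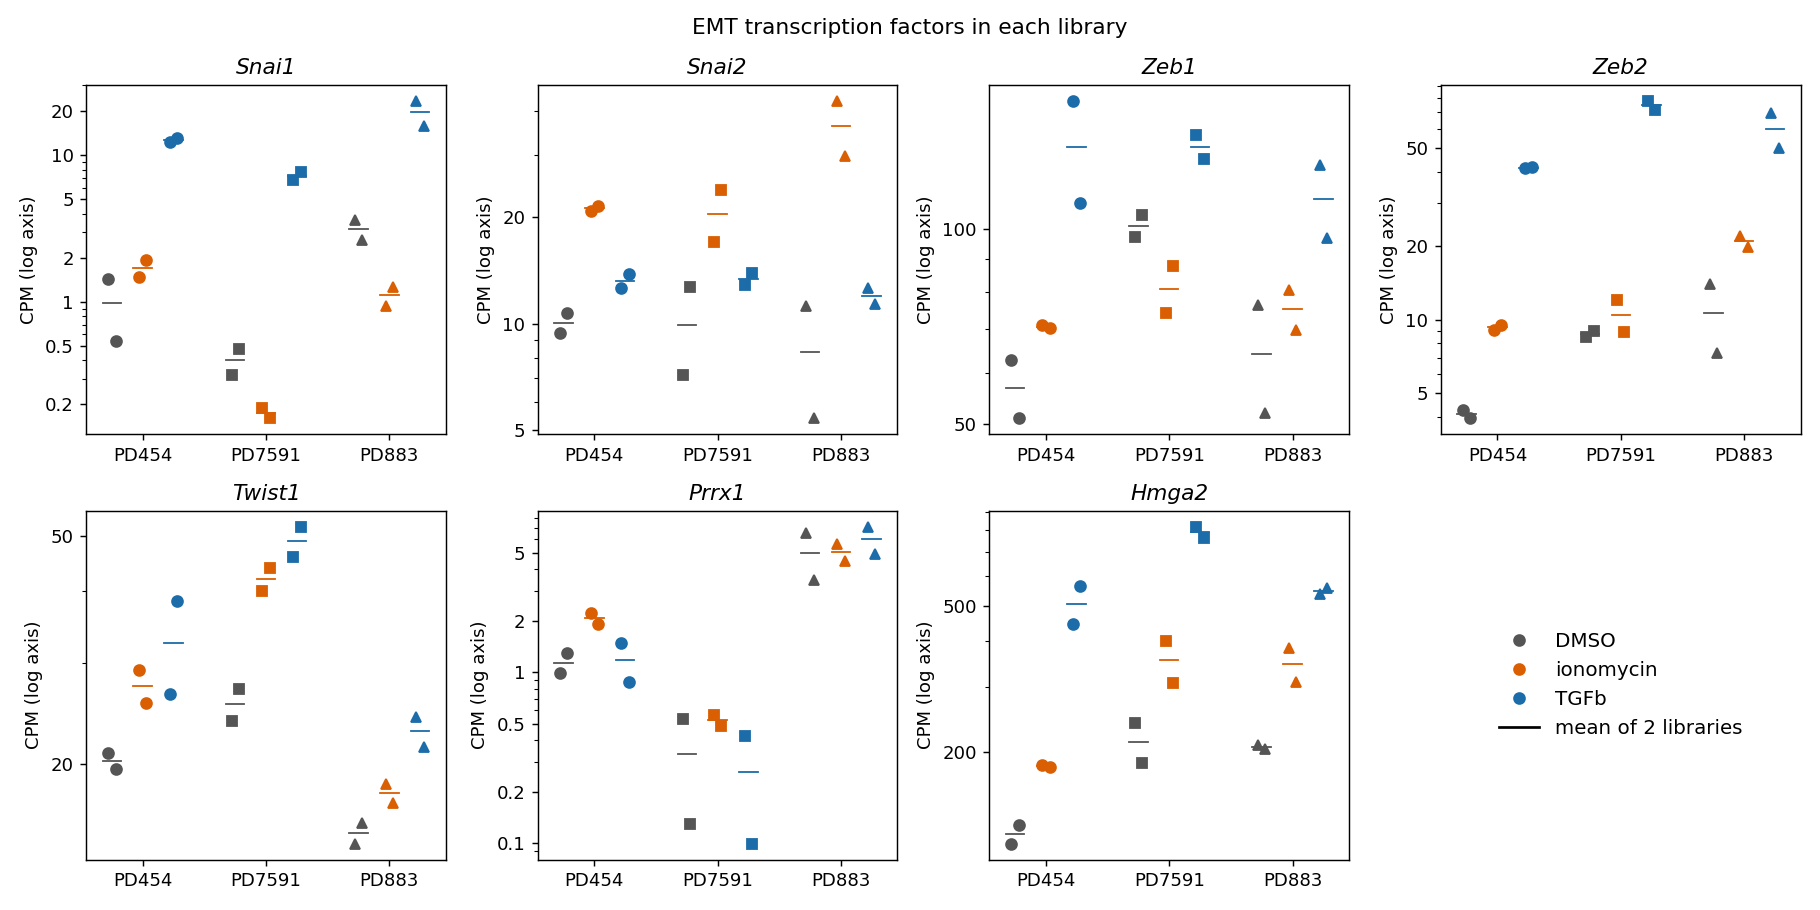
Level of each factor in each library, in CPM on a log axis, by line and treatment; short bars are means of 2 libraries. All TGFb libraries lie above all DMSO libraries for Snai1, Zeb2 and Hmga2, and all ionomycin libraries lie above all DMSO libraries for Snai2.

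Of the SNAIL genes, Snai1 was called for TGFb and Snai2 for ionomycin. Snai1 (ENSMUSG00000042821) encodes the SNAIL repressor and lies on chr2:167538195-167542814, plus strand, with 3 exons (GRCm38, GENCODE, as for the positions below). It stood with DMSO at 1.43 and 0.541 CPM in PD454, 0.3197 and 0.480 in PD7591, and 3.65 and 2.63 in PD883. With TGFb it stood at 12.4 and 13.1 CPM in PD454, 6.81 and 7.71 in PD7591, and 23.6 and 15.9 in PD883. Every TGFb library was above every DMSO library, also across lines. Non-overlap of this kind, with all TGFb libraries above, held for 3 of the 7 factors (Snai1, Zeb2 and Hmga2) and for 8.21% of all tested genes. The rise in Snai1 was 10.5-fold (log2 fold change 3.39 ± 0.35 SE, adjusted p = 2.05e-07). It was the largest fold change with TGFb among the 7 factors over the 3 lines.

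With ionomycin Snai1 stood at 1.48 and 1.92 CPM in PD454, 0.188 and 0.161 in PD7591, and 0.944 and 1.27 in PD883. The ionomycin libraries were above the DMSO libraries in PD454 and below them in PD7591 and PD883. Over the 3 lines the log2 fold change was -0.47 ± 0.39 (95% interval -1.28 to 0.33, adjusted p = 0.359). Within lines, from a fit of the 9 group means, the log2 fold change was 0.89 ± 0.40 in PD454, -1.18 ± 0.68 in PD7591 and -1.49 ± 0.37 in PD883. Within PD883 Snai1 was called lower (adjusted p = 0.0108 in edgeR's test). This call was lost without library 7 (DMSO PD883, log2 fold change -1.25) or 9 (ionomycin PD883, -1.27). The joint test on 2 degrees of freedom that this effect was equal in the lines gave an adjusted p of 0.0578, which missed the threshold. It passed at 0.0178 without library 13 (DMSO PD454), 0.0402 without library 8 (DMSO PD883), 0.0467 and 0.0461 without libraries 11 and 12 (TGFb PD883), and 7.24e-04 with no low-count filter. Without the line PD454, Snai1 was called lower with ionomycin (-1.37, adjusted p = 0.0158), and without PD883 its sign turned (0.35). These levels rest on 3 to 64 counts per library with DMSO or ionomycin and on 129 to 631 with TGFb.

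Snai2 (chr16:14705852-14709385, plus strand), which encodes SLUG, a SNAIL paralog that is also active in epithelial progenitors, rose with ionomycin over the 3 lines. Its DMSO levels were 9.38 and 10.8 CPM in PD454, 7.14 and 12.7 in PD7591, and 11.2 and 5.41 in PD883. The ionomycin levels were 20.9 and 21.6 CPM in PD454, 17.02 and 23.9 in PD7591, and 42.7 and 29.9 in PD883. All ionomycin libraries were above all DMSO libraries, the only such case among the 7 factors, beside 4.54% of all tested genes. The rise was 2.70-fold (log2 fold change 1.43 ± 0.21, adjusted p = 6.82e-05). In PD883 it was 2.13 ± 0.32, in PD454 1.07 ± 0.31 and in PD7591 1.04 ± 0.31, and the test of a difference among the lines gave an adjusted p of 0.224, or 0.0243 with no low-count filter. The call within PD454 was lost without any of its 4 DMSO or ionomycin libraries (adjusted p 0.0824 to 0.109), and that within PD7591 without library 1 (0.266) or 4 (0.217).

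With TGFb the levels of Snai2 lay in a narrow range, at 12.6 and 13.8 CPM in PD454, 12.8 and 13.9 in PD7591, and 12.6 and 11.4 in PD883. They overlapped the DMSO libraries only through library 2 (DMSO PD7591). The log2 fold change was 0.44 ± 0.21 (95% interval -0.00 to 0.89, adjusted p = 0.0905). It passed the test without that library (0.59, adjusted p = 0.0331), without library 9 (ionomycin PD883, adjusted p = 0.0404) and with a mean per group (adjusted p = 0.0458). Against TGFb, ionomycin gave higher Snai2 (log2 fold change 0.99 ± 0.21, adjusted p = 5.11e-04) and lower Snai1 (-3.87 ± 0.37, adjusted p = 4.48e-08).

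The balance of the SNAIL RNAs can be read per transcript length, in CPM per kb of the longest annotated transcript. On that scale the ratio of the Snai2 level to the Snai1 level was 1.65 to 21.2 in the DMSO libraries, with a median of 10.6. It was 9.02 to 119 with ionomycin (median 27.6) and 0.429 to 1.51 with TGFb (median 0.833). No TGFb library reached the ratio of any DMSO or ionomycin library. The high end of the ionomycin range came from PD7591, where Snai1 had 3 and 4 counts.

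Both ZEB genes rose with TGFb, by different amounts. Zeb2 (chr2:44983632-45117395, minus strand, 29 annotated transcripts) stood with DMSO at 4.28 and 3.96 CPM in PD454, 8.52 and 8.98 in PD7591, and 13.9 and 7.31 in PD883. With TGFb it stood at 41.5 and 41.8 CPM in PD454, 78.1 and 71.5 in PD7591, and 69.7 and 49.99 in PD883. The lowest TGFb library was well above the highest DMSO library. The rise was 7.92-fold (log2 fold change 2.99 ± 0.20, adjusted p = 9.57e-10), the smallest adjusted p among the 7 factors.

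Zeb2 also rose with ionomycin, to 9.09 and 9.53 CPM in PD454, 12.04 and 8.92 in PD7591, and 22.0 and 19.8 in PD883. In PD454 and PD883 both ionomycin libraries were above both DMSO libraries, and in PD7591 the groups overlapped. The log2 fold change was 0.82 ± 0.20 (adjusted p = 0.00388), with 1.18 ± 0.26 in PD454, 0.26 ± 0.25 in PD7591 and 0.99 ± 0.25 in PD883. This call was lost with no line term (adjusted p = 0.0892), with duplicates summed (0.0511) and without PD454 (0.0836). The level with ionomycin was 4.48-fold lower than with TGFb (log2 fold change -2.16 ± 0.20, adjusted p = 2.96e-08).

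Zeb1, a potent repressor of Cdh1, started from a higher level. Its DMSO values were 62.7 and 51.0 CPM in PD454, 97.2 and 105 in PD7591, and 76.3 and 52.1 in PD883. With TGFb they were 158 and 110 CPM in PD454, 140 and 129 in PD7591, and 126 and 97.0 in PD883. The TGFb libraries were above the DMSO libraries of their own line in each line. Across lines the ranges overlapped only through library 12 (TGFb PD883), which was below both DMSO libraries of PD7591. Library 12 is among the 4 libraries rich in short transcripts. The rise was 1.75-fold (log2 fold change 0.81 ± 0.14, adjusted p = 1.26e-04). Within lines it was 1.24 ± 0.21 in PD454, 0.41 ± 0.21 in PD7591 and 0.80 ± 0.21 in PD883, and the test of a difference among the lines gave an adjusted p of 0.220.

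With ionomycin Zeb1 stood at 71.1 and 70.4 CPM in PD454, 74.2 and 87.6 in PD7591, and 80.5 and 69.9 in PD883. These values sat above DMSO in PD454, below it in PD7591 and overlapped it in PD883. The log2 fold change was 0.06 ± 0.14 (95% interval -0.24 to 0.36, adjusted p = 0.769), and it was -0.12 without the 4 libraries rich in short transcripts. The ratio of the Zeb2 level to the Zeb1 level, per kb, lay between 0.0434 and 0.116 in DMSO libraries, between 0.0648 and 0.180 in ionomycin libraries and between 0.167 and 0.355 in TGFb libraries. Zeb1 RNA was thus the more abundant of the pair per length in every library. Zeb2 is overlapped over 653 exon bases by the antisense gene Zeb2os, which had at most 34 counts in a library. Zeb1 is overlapped over 198 exon bases by Gm10125. Whether counting used strand is not given in the sources used here, so reads from these overlaps cannot be told apart.

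The precursor genes of the miR-200 family and miR-205, which repress ZEB RNAs, held 1 count in all 18 libraries together, in Mir200a, and none of the 6 was tested. Such short precursors are poorly captured by most RNA sequencing, and the mature microRNAs were not analysed here.

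**Figure D2:**
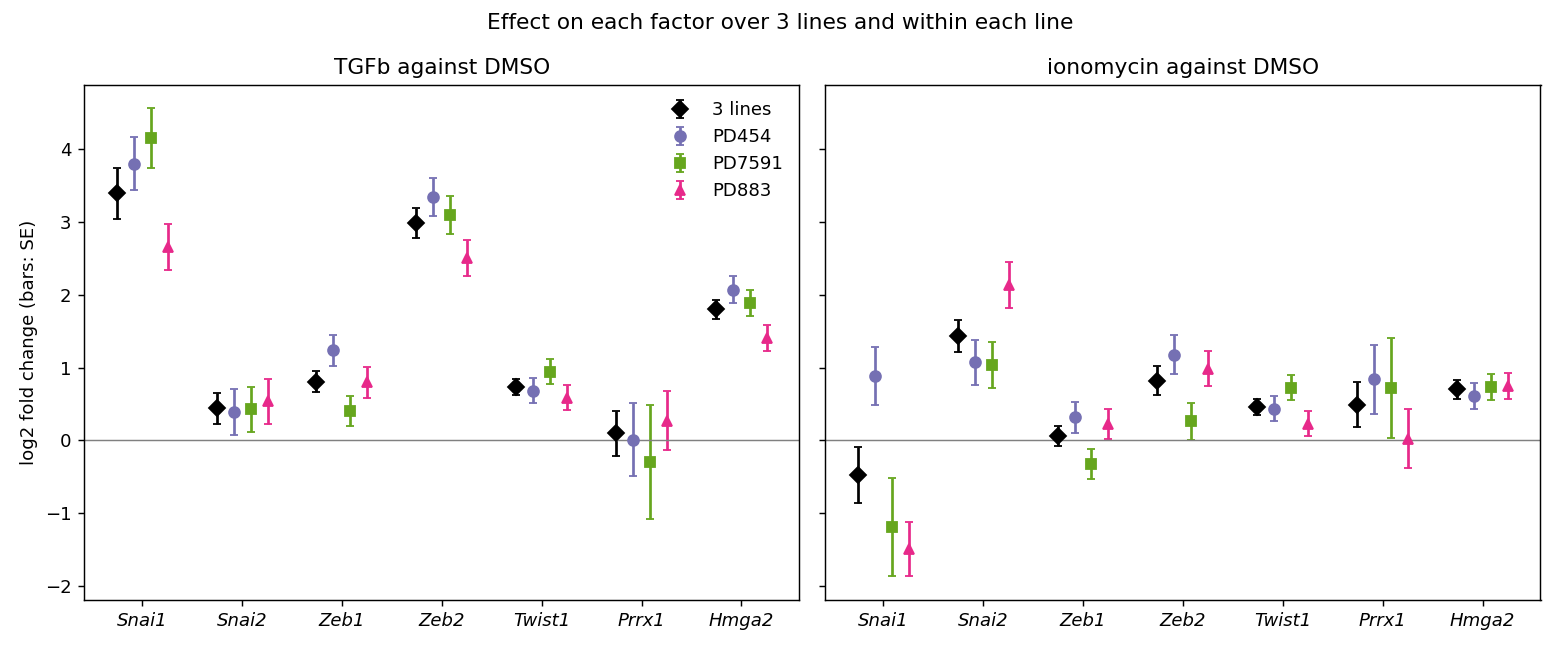
Log2 fold change of each factor against DMSO over the 3 lines (black) and within each line (coloured), with SE bars, for TGFb at left and ionomycin at right. Snai1 lies at 3.39 with TGFb and at -0.47 with ionomycin, where PD454 lies above 0 and the other lines below.

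Twist1 (chr12:33957671-33959829, plus strand), a factor of mesoderm and neural crest development, rose with each agent by less than 2-fold. The DMSO values were 20.9 and 19.6 CPM in PD454, 23.8 and 27.1 in PD7591, and 14.5 and 15.8 in PD883. With TGFb Twist1 stood at 26.5 and 38.6 CPM in PD454, 45.9 and 51.9 in PD7591, and 24.2 and 21.5 in PD883. With ionomycin it stood at 29.2 and 25.5 CPM in PD454, 40.1 and 43.9 in PD7591, and 18.5 and 17.1 in PD883. In each line both treated pairs were above the DMSO pair, and the lines kept apart enough that the ranges overlapped across lines.

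The rise in Twist1 was 1.67-fold with TGFb (log2 fold change 0.74 ± 0.11, adjusted p = 1.50e-05) and 1.38-fold with ionomycin (0.46 ± 0.11, adjusted p = 0.00304). The ionomycin call was lost with no line term (adjusted p = 0.194), with duplicates summed (0.0574) and without PD7591 (0.0844). Ionomycin against TGFb gave -0.27 ± 0.11 (adjusted p = 0.0337), a call that was lost without any of the 3 lines (adjusted p 0.0815 to 0.164) and without any of 5 libraries, and its highest adjusted p with 1 library left out was 0.0833.

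Prrx1 (chr1:163245119-163313710, minus strand), a factor of limb and craniofacial mesenchyme, differed between lines and was not called for either treatment. With DMSO it stood at 0.987 and 1.29 CPM in PD454, 0.533 and 0.131 in PD7591, and 6.50 and 3.45 in PD883. With TGFb it stood at 1.48 and 0.876 CPM in PD454, 0.422 and 0.0995 in PD7591, and 7.11 and 4.92 in PD883. With ionomycin it stood at 2.22 and 1.92 CPM in PD454, 0.564 and 0.484 in PD7591, and 5.62 and 4.45 in PD883. PD883 was the highest line and PD7591 the lowest under each treatment, with no overlap between lines.

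The log2 fold change of Prrx1 was 0.10 ± 0.31 with TGFb (95% interval -0.55 to 0.75, adjusted p = 0.809) and 0.49 ± 0.31 with ionomycin (-0.16 to 1.14, adjusted p = 0.231). The counts behind these intervals were 2 to 195 per library. In PD454 both ionomycin libraries were above both DMSO libraries, with a log2 fold change of 0.84 ± 0.47.

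Hmga2 (chr10:120361275-120476469, minus strand) had the highest level of the 7, also per length, and rose with both agents. Its DMSO values were 113 and 127 CPM in PD454, 240 and 187 in PD7591, and 210 and 204 in PD883. With TGFb they were 445 and 564 CPM in PD454, 820 and 764 in PD7591, and 537 and 560 in PD883. With ionomycin they were 184 and 183 CPM in PD454, 402 and 309 in PD7591, and 383 and 311 in PD883. In each line the order of the pairs was DMSO, ionomycin, TGFb without overlap. Across lines the TGFb libraries stayed above all others, while the PD454 ionomycin libraries fell within the DMSO range.

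The rise in Hmga2 was 3.49-fold with TGFb (log2 fold change 1.80 ± 0.13, adjusted p = 1.87e-09) and 1.63-fold with ionomycin (0.70 ± 0.13, adjusted p = 3.78e-04). The ionomycin effect was 0.61 ± 0.17 in PD454, 0.74 ± 0.17 in PD7591 and 0.75 ± 0.17 in PD883, and the test of a difference among the lines gave an adjusted p of 0.901. The TGFb effect was 2.07 ± 0.18 in PD454, 1.89 ± 0.18 in PD7591 and 1.41 ± 0.18 in PD883, and the test of a difference among the lines gave an adjusted p of 0.228. An antisense gene, 1700006J14Rik, overlaps 140 exon bases of Hmga2.

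Reads of Hmga2 can be shared with Hmga2-ps1, a transcribed pseudogene on chr1:176834624-176836133 (GRCm38.p6), and the Hmga2 values are uncertain to that extent. The pseudogene also overlaps the span of the protein-coding gene Sdccag8. Whether reads of Sdccag8 were counted for Hmga2-ps1 was not tested. Hmga2-ps1 had between 30.6 and 37.6 CPM in DMSO libraries, between 33.0 and 49.0 in ionomycin libraries and between 89.8 and 141 in TGFb libraries, and its counts were 12.2% to 29.0% of those of Hmga2. The log2 fold change of Hmga2-ps1 was 1.73 ± 0.13 with TGFb (adjusted p = 3.10e-09) and 0.33 ± 0.13 with ionomycin (adjusted p = 0.0529). The latter passed in 11 of the alternatives, among them DESeq2 (0.0336), RLE scaling factors (0.0445) and 5 that left out 1 library. With the counts of both entries summed, an analysis added after the data were seen, the log2 fold change was 1.79 with TGFb (adjusted p = 2.00e-09) and 0.64 with ionomycin (adjusted p = 7.86e-04). The entries differed in how the lines compared with DMSO: Hmga2 was 1.78-fold higher in PD7591 than in PD454, and for Hmga2-ps1 the log2 fold change was -0.01 ± 0.17.

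**Figure D3:**
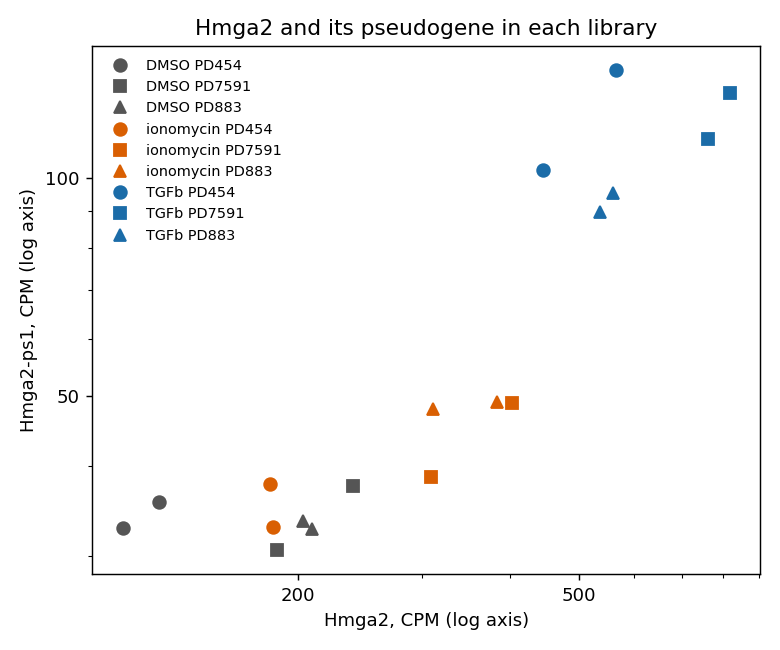
Level of Hmga2 (x axis) and of its pseudogene Hmga2-ps1 (y axis) in each library, both in CPM on log axes, by treatment (colour) and line (shape). The TGFb libraries lie highest on both axes, and the DMSO libraries spread from 113 to 240 CPM in Hmga2 but only from 30.6 to 37.6 CPM in Hmga2-ps1.

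Levels of different factors can be compared only per transcript length. With DMSO the mean level over the 3 lines was 47.3 ± 13.7 CPM per kb (SD, n = 3 lines) for Hmga2, 12.8 ± 4.10 for Zeb1, 12.5 ± 3.15 for Twist1 and 4.67 ± 0.479 for Snai2. Below these stood Snai1 at 0.930 ± 0.891, Zeb2 at 0.858 ± 0.366 and Prrx1 at 0.329 ± 0.380. Zeb1 and Twist1 changed order between DMSO libraries, as did Snai1 and Zeb2, whereas Prrx1 was below both Snai1 and Zeb2 in each of the 6 DMSO libraries. With TGFb Snai1 reached 8.17 ± 3.86 and Zeb2 6.44 ± 1.82 CPM per kb, which brought both to the range of Snai2 at 6.37 ± 0.379. With ionomycin Snai2 reached 12.9 ± 4.42 CPM per kb, beside 13.03 ± 0.880 for Zeb1, and it was below Zeb1 in the libraries of PD454 and PD7591 and above it in those of PD883. Transcript choice matters here, since the longest Zeb2 transcript has 9124 bases and that of Snai1 has 1621.

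**Figure D4:**
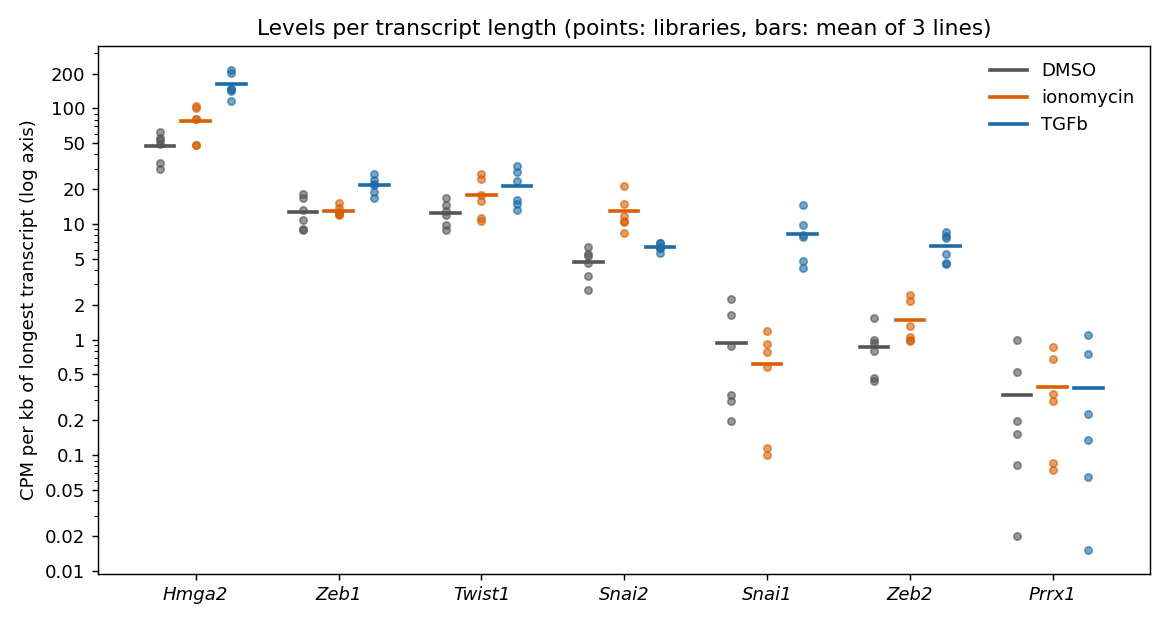
Level of each factor in CPM per kb of its longest transcript, on a log axis, by treatment; points are libraries and bars are means of the 3 lines. Hmga2 is the highest factor under each treatment, and with TGFb Snai1 and Zeb2 reach the level of Snai2.

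The lines themselves differed in 6 of the 7 factors when only DMSO libraries were compared (joint test on 2 degrees of freedom, 47.9% of all tested genes called). PD883 was the highest line in Snai1 (adjusted p = 2.11e-04) and Prrx1 (adjusted p = 1.31e-04). Snai1 was 7.60-fold and Prrx1 15.4-fold higher in PD883 than in PD7591. PD7591 had the highest mean in Zeb1 (adjusted p = 0.00923) and Twist1 (adjusted p = 0.0100). These adjusted p-values are of the joint test. For Twist1, PD7591 against PD454 was not called (log2 fold change 0.33 ± 0.17, adjusted p = 0.193). Without library 2 (DMSO PD7591) the joint calls of Zeb1 and Twist1 were lost, at 0.0715 and 0.0621. That of Twist1 was also lost without library 7 (DMSO PD883, 0.0559). PD454 was the lowest line in Zeb2 (adjusted p = 0.00225) and Hmga2 (adjusted p = 0.00279). Snai2 was the factor for which no difference was called (adjusted p = 0.665). In none of the 7 factors did the effect of TGFb, or that of ionomycin, differ among lines at an adjusted p under 0.05, in edgeR's test, beside 5.26% and 2.59% of all tested genes. For TGFb, Snai1 passed without library 13 (DMSO PD454, adjusted p = 0.0377) and with no low-count filter (0.0464), and Zeb2 passed without library 8 (DMSO PD883, 0.0291). At an unadjusted p under 0.05 stood 3 factors for TGFb (Snai1, Zeb1 and Hmga2) and 2 for ionomycin (Snai1 and Snai2), and limma-voom called 0 in each.

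Ordered over the 9 groups of line and treatment, Snai1 had the most separate neighbours among the 7 factors, 7 of 8 in the order. DMSO PD454 and ionomycin PD883 were the pair that overlapped. The lowest Snai1 step, from ionomycin PD7591 to DMSO PD7591, rested on 3 and 4 counts against 6 and 11. For Zeb1 1 of 8 neighbours was separate, between ionomycin PD7591 and DMSO PD7591. The counts of separate neighbours were 6 for Zeb2, 5 for Twist1 and Hmga2, 4 for Snai2 and 3 for Prrx1. With 2 libraries per group, separate means only that the pairs did not overlap. The same counts over all tested genes were not made, so whether any of these is unusual was not tested.

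Of 20 other tested transcription factors linked to EMT, 9 rose and 3 fell with TGFb, and 2 rose and 4 fell with ionomycin. Their median log2 fold change was 0.50 and -0.08. For this list and those below, the shares over all tested genes were 24.3% higher and 26.5% lower with TGFb. With ionomycin the shares were 17.2% and 16.1%. Runx1, a core factor of blood and epithelial development, rose with TGFb from a mean of 63.1 to 211 CPM (log2 fold change 1.75 ± 0.17, adjusted p = 6.27e-08). Sox11, a neural progenitor factor, rose with TGFb (1.46 ± 0.14, adjusted p = 9.28e-08) and fell with ionomycin (-0.87 ± 0.14, adjusted p = 1.81e-04). Ets2 fell with TGFb (-0.82 ± 0.12, adjusted p = 2.47e-05). Over the 33 alternative settings the ionomycin counts ran from 0 to 3 higher and from 2 to 6 lower, and those with TGFb from 6 to 11 higher and 1 to 3 lower.

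Of 16 tested corepressors and chromatin enzymes that SNAIL, ZEB and TWIST proteins recruit, 5 rose and 3 fell with TGFb, and none rose and 8 fell with ionomycin. Their median log2 fold change was 0.13 with TGFb and -0.25 with ionomycin. Of all tested genes, 24.3% rose and 26.5% fell with TGFb, and 17.2% rose and 16.1% fell with ionomycin. Ctbp2, the corepressor that ZEB proteins bind, rose with TGFb from 103 to 159 CPM (log2 fold change 0.61 ± 0.09, adjusted p = 1.16e-05). The polycomb subunit gene Suz12 fell with TGFb (-0.62 ± 0.10, adjusted p = 3.87e-05). Among those that fell with ionomycin were Ajuba, a LIM protein that SNAIL recruits (-0.55 ± 0.09, adjusted p = 2.10e-04), and the deacetylase gene Hdac2 (-0.59 ± 0.11, adjusted p = 5.95e-04). The number that fell with ionomycin moved with the setting, from 3 to 10 over the 33 alternatives. It was 3 without PD454 or without PD7591, and 3 to 5 without library 13, 14, 1, 2, 8, 15 or 3.

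SNAIL proteins are short lived. Of 13 tested genes for enzymes that mark, degrade or stabilise them, 5 rose and 3 fell with TGFb, beside 24.3% and 26.5% of tested genes. Their median log2 fold change was 0.14 with TGFb and -0.12 with ionomycin. Among them Csnk1e, a casein kinase gene, rose with TGFb from 140 to 324 CPM (log2 fold change 1.22 ± 0.11, adjusted p = 2.86e-08). Btrc, which encodes the ubiquitin ligase subunit that recognises phosphorylated SNAIL, also rose with TGFb (0.84 ± 0.11, adjusted p = 3.27e-06). Fbxl5, another ligase subunit, fell with TGFb (-1.43 ± 0.13, adjusted p = 2.61e-08). With ionomycin none rose and 3 fell, beside 17.2% and 16.1% of all tested genes. The fallers included Pak1, a kinase gene (-0.74 ± 0.15, adjusted p = 7.80e-04), and Ctdsp1, a phosphatase gene (-0.40 ± 0.08, adjusted p = 0.00117). The Ctdsp1 call was lost with duplicates summed (0.0781).

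In the axis of LIN28 and let-7 that controls Hmga2, 1 of 10 tested genes rose and 3 fell with TGFb, and 1 rose and 2 fell with ionomycin. Their median log2 fold change was -0.11 and -0.07. Over all tested genes, 24.3% rose and 26.5% fell with TGFb, and 17.2% and 16.1% with ionomycin. The Argonaute gene Ago2 fell with TGFb (-0.99 ± 0.22, adjusted p = 9.26e-04), as did Igf2bp1, another let-7 target (-0.89 ± 0.16, adjusted p = 1.39e-04). Lin28b, whose product blocks let-7 processing, was at 0.219 CPM with DMSO and 0.509 with TGFb (1.20 ± 0.49, adjusted p = 0.0473), and this call was lost under limma-voom, under DESeq2 and without any of 11 libraries, left out in turn. With ionomycin Igf2bp1 had -0.43 ± 0.16 (adjusted p = 0.0442), a call lost in 18 of the alternatives, 11 of which left out 1 library, and over the alternatives 0 to 2 genes of the list rose and 0 to 4 fell.

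Of 18 tested epithelial genes that these factors repress, 2 rose and 14 fell with TGFb, and 8 rose and none fell with ionomycin. Their median log2 fold change was -1.56 with TGFb and 0.37 with ionomycin. Cdh1 fell with TGFb from 608 to 67.4 CPM (log2 fold change -3.34 ± 0.30, adjusted p = 3.15e-08), and with ionomycin its log2 fold change was -0.09 (adjusted p = 0.829). Mal2, a membrane trafficking gene, fell with TGFb from 59.8 to 1.67 CPM (-5.37 ± 0.24, adjusted p = 3.94e-12). Cldn4, a tight junction gene, went the other way, from 0.0941 to 60.2 CPM (9.26 ± 0.40, adjusted p = 2.19e-12). The other riser, Krt18 (0.29 ± 0.11, adjusted p = 0.0377), was lost under 14 of the alternatives.

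With ionomycin Grhl1, an epithelial transcription factor gene, rose from 3.62 to 16.2 CPM (log2 fold change 2.34 ± 0.23, adjusted p = 7.26e-07), and the claudin gene Cldn3 rose from 4.97 to 34.0 CPM (3.20 ± 0.33, adjusted p = 1.28e-06). The number of risers with ionomycin was 3 with no line term, 4 with duplicates summed and 5 without PD454. Epcam fell with TGFb (-1.07, adjusted p = 2.41e-04) and had 0.31 with ionomycin (adjusted p = 0.222), at the low levels given above.

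Of 12 tested mesenchymal genes, 9 rose and none fell with TGFb, and 2 rose and 2 fell with ionomycin, with a median log2 fold change of 1.90 and 0.35. The matrix gene Fn1 rose with TGFb from 288 to 6219 CPM (log2 fold change 4.50 ± 0.30, adjusted p = 9.01e-10), Tnc from 0.372 to 729 CPM (10.76 ± 0.50, adjusted p = 6.14e-12), and the N-cadherin gene Cdh2 had 0.92 (adjusted p = 1.48e-04). Vim, the vimentin gene, had 0.25 with TGFb (adjusted p = 0.234) and 0.38 with ionomycin (adjusted p = 0.103), and each passed without library 7 (DMSO PD883), at 0.0252 and 0.00896. With ionomycin Cdh2 fell (-0.47 ± 0.17, adjusted p = 0.0383), a call lost without any of 8 libraries. The ionomycin counts of this list ran from 0 to 5 higher and 0 to 3 lower over the alternatives, with 5 higher with a mean per group, without PD883 or without library 7, and 0 higher without PD454, with no line term or with duplicates summed.

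Among the TGFb ligands, receptors, SMADs and their inhibitors, 8 of 12 rose and 1 fell with TGFb, with a median log2 fold change of 0.93, beside 0.01 with ionomycin. Tgfb1 rose with TGFb from 84.1 to 285 CPM (log2 fold change 1.75 ± 0.13, adjusted p = 2.09e-09). Tgif1, which encodes a SMAD corepressor, also rose with TGFb (2.16 ± 0.21, adjusted p = 1.32e-07), and the receptor gene Tgfbr2 fell (-1.44 ± 0.14, adjusted p = 6.64e-08). With ionomycin 2 of the 12 rose, Tgfb1 (0.47 ± 0.12, adjusted p = 0.00730) and Tgif1 (0.64 ± 0.21, adjusted p = 0.0243), and none fell. Neither was called without PD454 (0.0641 and 0.177) or with duplicates summed (0.0622 and 0.175). The Tgfb1 call was also lost without PD7591 (0.0740), and that of Tgif1 in 9 of the alternatives in all, among them no line term (0.0878) and the ones without library 13, 8 or 9 (0.0531, 0.0540 and 0.0749). Scaling by library totals called 5 lower.

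Among the calcineurin subunits, the NFAT factors and the calcineurin inhibitor gene Rcan1, 4 of 10 rose and 1 fell with ionomycin, beside 17.2% and 16.1% of tested genes. With TGFb 2 rose and none fell, beside 24.3% and 26.5%. The median log2 fold change was 0.19 with ionomycin and 0.11 with TGFb. Rcan1, which is itself an NFAT target, rose with ionomycin from 19.2 to 144 CPM (log2 fold change 2.77 ± 0.30, adjusted p = 2.19e-06), and the catalytic subunit gene Ppp3cc rose (1.10 ± 0.14, adjusted p = 1.59e-05). Rcan1 had 0.47 with TGFb (adjusted p = 0.173). Nfatc2 was 10.8 CPM with DMSO, 3.27 with ionomycin (-1.60 ± 0.37, adjusted p = 0.00314) and 28.2 with TGFb (1.47 ± 0.34, adjusted p = 0.00156). With no line term these Nfatc2 calls were lost, at 0.0759 and 0.0948, and the ionomycin call also with duplicates summed (0.0563). Nfatc4 rose with TGFb from 0.226 to 7.27 CPM (4.91 ± 0.39, adjusted p = 6.64e-09) and stood at 1.57 CPM with ionomycin.

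**Figure D5:**
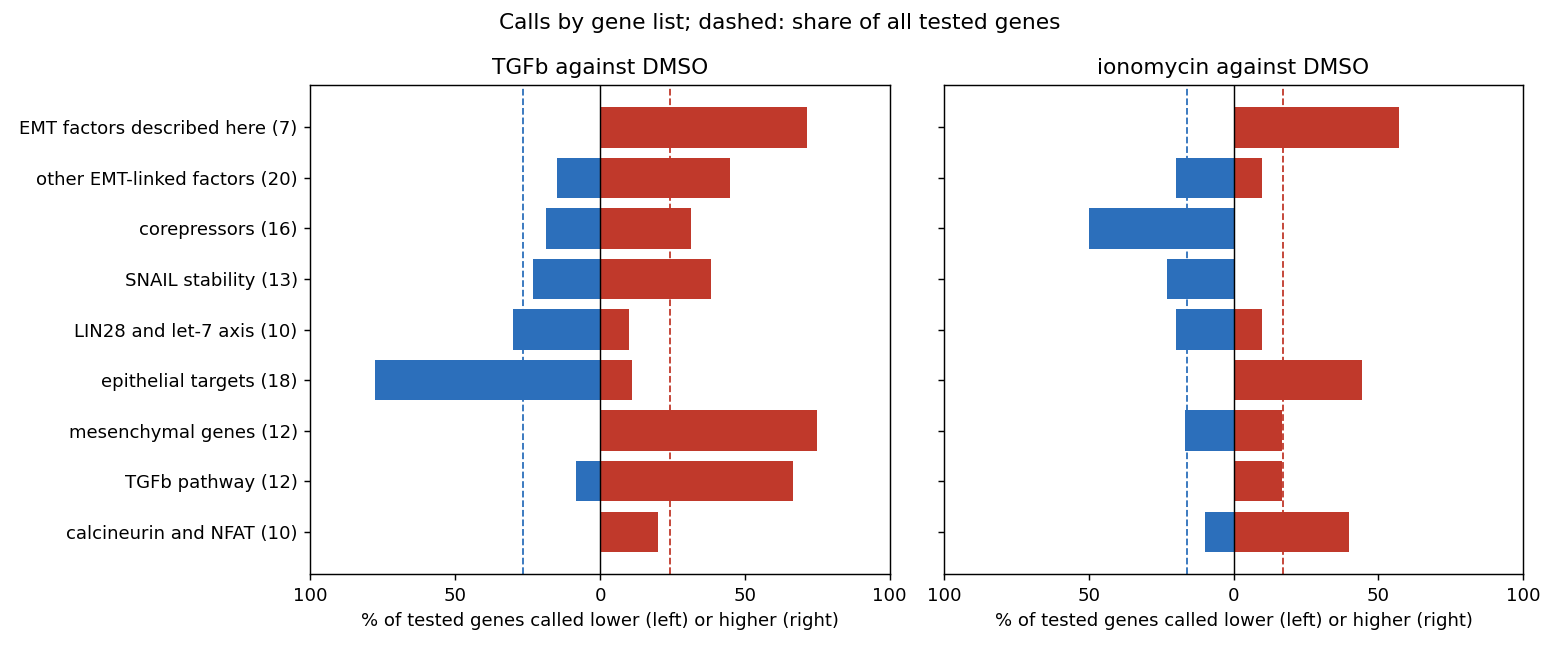
Percent of the tested genes of each list that were called higher (right, red) or lower (left, blue) with TGFb and with ionomycin against DMSO; the number tested stands beside each name, and dashed lines give the percent of all tested genes, 24.3% and 26.5% for TGFb and 17.2% and 16.1% for ionomycin. Epithelial targets lie far to the left with TGFb (14 of 18) and to the right with ionomycin (8 of 18).

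The genes whose pattern over the 9 group means was most like that of each factor were found by Pearson's r of log2 CPM among 11207 genes, as a description. They were Epor (r = 0.987) and Adgrg1 (0.984) for Snai1, and Lrrc27 (0.976) and Map3k3 (0.953) for Snai2. For the ZEB genes they were Arvcf (0.976) and Ttc3 (0.969) beside Zeb1, and Tgif1 (0.985) and Frmd4a (0.978) beside Zeb2. Ogdhl (0.949) and Dnaaf5 (0.937) were nearest to Twist1, Tfr2 (0.966) and Tbx15 (0.965) to Prrx1, and Zswim8 (0.971) and Zfp768 (0.967) to Hmga2. Among the factors themselves, Zeb2 and Hmga2 had the highest r (0.955) and Twist1 and Prrx1 the lowest (-0.76). These 9 points share lines, treatments and library preparation.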

How the data were processed

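The authors deposited raw read counts per gene symbol, with no scaling between libraries. Per the submitters' processing notes, CASAVA, Trimmomatic 0.32, STAR and featureCounts were used on the mouse build mm10; neither their settings nor the use of strand nor the annotation is given in the sources used here. Of 24527 entries, 5059 were without a count in any library. Spreadsheet dates stand in place of 26 names; 19 of these entries were tested and none is named.

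The fits used edgeR 4.0.16 in R 4.3.3 on the 13827 genes that passed filterByExpr, with TMM scaling. Robust quasi-likelihood F tests compared treatments with line as a second term. A fit of the 9 group means gave the effects within lines, the tests of line dependence and the comparison of lines with DMSO. Benjamini-Hochberg adjustment ran over all tested genes. SEs were taken as the absolute log2 fold change over the root of F. CPM uses TMM-scaled library sizes, means per treatment are over the 3 line means, and CPM per kb divides it by the longest transcript in GENCODE M21 (GRCm38). Duplicates differed by more than sampling noise, with a chi-square per degree of freedom of 4.79 to 86.8. Scripts were tested on simulated data.

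Alternatives were DESeq2 1.42.0, limma-voom (limma 3.58.1), RLE factors, scaling by library totals, dropping the low-count filter, a mean per group, no line term, duplicates added together, the libraries of a contrast alone, and leaving out each line, each library, Rn45s or the 4 libraries rich in short transcripts. Summing Hmga2 with Hmga2-ps1 was chosen after seeing the data. The members and gene lists were chosen with earlier results of these data known. All 7 members are named, and the rule takes from each other list up to 2 rising and 2 falling genes per contrast with the smallest adjusted p, with Cdh1, Epcam, Vim, Cdh2 and Fn1 in any case; the text names part of these. For likeness, 2 genes per member with a mean of at least 2 CPM are named.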

Additional observations from a re-analysis of the deposited data

How the results depend on the processing

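No paired analysis by library number was possible because the groups share none; pairing by line is part of the comparisons over 3 lines, through the line term. In the comparisons over 3 lines, direction and call were kept in 218 of 225 combinations of factor and setting for TGFb, 212 of 225 for ionomycin and 213 of 225 for ionomycin against TGFb; the cause of the changes below was not tested. With duplicates summed, 4646 genes were called for TGFb and 1857 for ionomycin, and with no line term 2152 for ionomycin; in both, 2 factors were higher with ionomycin. Without PD454, 1 factor (Snai1) was lower with ionomycin. With no low-count filter, line dependence was called for 1391 genes (TGFb) and 1050 (ionomycin). Scaling by library totals moved the median of all genes to -0.117 for ionomycin against DMSO and to -0.108 against TGFb, and the share of ionomycin calls that were higher to 39.3%, from 51.6%.

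Signs turned mostly for values near 0. Over 3 lines, Prrx1 with TGFb was -0.0030 with a mean per group and -0.085 without PD883. With ionomycin, Snai1 was 0.35 without PD883, and Zeb1 was -0.018 with library totals, -0.051 without PD454, -0.011 without PD883 and -0.12 when the 4 short-transcript-rich libraries were dropped. Within lines, Prrx1 was -0.026 (library totals) and -0.041 (limma-voom) for TGFb in PD454 and -0.068 (library totals) for ionomycin in PD883, and Snai2 in DMSO PD7591 against PD454 was 0.013 (library totals).

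Leaving out 1 library at a time gave these ranges. Genes called for ionomycin were 1031 to 3190 in PD454, 1133 to 2755 in PD7591 and 1925 to 3280 in PD883, and for TGFb 3456 to 5502 in PD7591. Line dependence was called for 411 to 1093 genes (TGFb) and 101 to 688 (ionomycin). Between DMSO lines the counts were 1396 to 3170 (PD7591 against PD454), 2789 to 5071 (PD883 against PD454) and 2444 to 4912 (PD883 against PD7591). Prrx1 with TGFb ranged from -0.10 to 0.31 over the lines, -0.40 to 0.38 in PD454, -1.62 to 0.99 in PD7591 and -0.12 to 0.79 in PD883. With ionomycin Prrx1 ranged from -0.019 to 1.96 in PD7591 and -0.35 to 0.54 in PD883, and Zeb1 from -0.014 to 0.14 over the lines and -0.0047 to 0.53 in PD883. In DMSO, PD7591 against PD454 gave -0.50 to 0.34 for Snai2; PD883 against PD454 gave -0.90 to 0.17 for Snai2 and -0.13 to 0.44 for Zeb1; PD883 against PD7591 gave -0.88 to 0.21 for Snai2, -0.26 to 0.68 for Zeb2 and -0.21 to 0.16 for Hmga2. Depth limited Snai1 without TGFb and Prrx1, each with counts below 10 in some libraries.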

Other observations

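The closest paralogs of the factors were chosen after their values were seen, and no difference between a factor and its paralog was tested. Prrx2, the paralog of Prrx1, rose with TGFb from a mean of 20.0 to 57.0 CPM (log2 fold change 1.83 ± 0.23, adjusted p = 2.97e-06 in edgeR's test, or 0.111 with no line term), and with ionomycin its log2 fold change was -0.09 ± 0.23 (adjusted p = 0.798). Prrx1 had 0.10 ± 0.31 with TGFb. Snai3, a SNAIL paralog, was at 1.04 CPM with DMSO and 0.296 with TGFb (-1.498 ± 0.55, adjusted p = 0.0296), a call lost in 14 of the alternatives, among them the ones without PD454 (0.364) and without PD883 (0.113). Twist2 had 0.27 ± 0.46 with TGFb (adjusted p = 0.650) and -0.80 ± 0.50 with ionomycin (adjusted p = 0.225), at 0.552 to 1.28 CPM. Hmga1, the paralog of Hmga2, had 0.49 ± 0.26 with TGFb (adjusted p = 0.121) and 0.61 ± 0.26 with ionomycin (adjusted p = 0.0748), which passed the threshold under DESeq2 (0.0483), with duplicates summed (0.0498) and without library 13 (0.0303), 1 (0.0402) or 4 (0.0335); with TGFb it passed without library 13 (0.0460).

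The antisense gene Zeb2os, which overlaps Zeb2, had at most 3 counts in a DMSO library, at most 10 in an ionomycin library and between 2 and 34 in a TGFb library. Its log2 fold change with TGFb was 2.63 ± 0.61 (adjusted p = 0.00144), beside 2.99 ± 0.20 for Zeb2. With no stated strand mode these counts cannot be told apart from reads of Zeb2 itself.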
